A study of Mus musculus with 4 samples.

Results

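The endothelial cells described here are the vessel-lining cells caught in single-cell RNA libraries of mouse tumors, 141 of 56088 kept cell barcodes. Kept barcodes showed 300 genes or more, 500 UMIs or more (unique molecular identifiers, each standing for 1 captured mRNA molecule) and no more than 20% mitochondrial UMIs. It was taken as endothelial when Cdh5, Kdr, Emcn and Plvap together had at least 3 UMIs over at least 2 of these genes. It also had to have no UMI of Ptprc (CD45), Dcn or Lum, and at most 5 UMIs of C1qa, C1qb and C1qc. The rule therefore rests on measured values, and the levels of those genes are given as descriptions only. Of 181 barcodes positive for the vessel genes, 40 were left out by the other conditions, 19 of them for a Ptprc UMI, 24 for C1q and 7 for Dcn or Lum. At the threshold, 9 members had exactly 3 UMIs of the vessel genes, and 16 barcodes just outside had 2 UMIs over 2 genes.

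The 4 libraries came from Lrrc25-/- and wild-type (WT) mice carrying B16F10, a mouse melanoma line, taken on day 14, and from Lrrc25-/- and WT mice carrying MC38, a mouse colon carcinoma line, taken on day 26. No treatment was given. Each library was a pool of tumor tissue from 3 mice (100 mm3 per tumor). Bead-isolated CD45+ cells had been mixed 5:1 with the unsorted suspension after red cells, debris and dead cells were removed, so vessel cells were diluted by design. The tumor cells are the injected lines, and the endothelial cells come from the host. Lrrc25, a leucine-rich repeat membrane protein found mainly in myeloid cells, had 0 and 1 endothelial UMIs in the Lrrc25-/- and WT B16F10 pools and 0 and 0 in the MC38 pools. Macrophages of the same libraries had 3.89 CPM (counts per 1000000 UMIs) in the Lrrc25-/- B16F10 pool, against 111 CPM in the WT B16F10 pool, and 1.92 CPM in the Lrrc25-/- MC38 pool, against 88.1 CPM in the WT MC38 pool. At this depth Lrrc25 was thus seen in endothelial cells as 1 UMI in all.

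Endothelial cells line every vessel and hold together through VE-cadherin (Cdh5) at their junctions. VEGF acts on them mainly through its receptor VEGFR2 (Kdr), and at the front of a sprout it induces tip cells that make Esm1, Apln, Angpt2 and Dll4. Tumor vessels sprout under hypoxia and are often immature, with Plvap marking their permeable wall, and endothelial cells also decide which leukocytes can stop and cross, through adhesion molecules such as Icam1 and Vcam1 and chemokines such as Cxcl9.

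The cells were rare in every library. They numbered 49 of 12299 in the Lrrc25-/- B16F10 pool (0.398%, exact 95% binomial interval 0.295% to 0.526%) and 61 of 9799 in the WT B16F10 pool (0.623%, 0.476% to 0.799%). In MC38 there were 3 of 16704 in the Lrrc25-/- pool (0.0180%, 0.00370% to 0.0525%) and 28 of 17286 in the WT pool (0.162%, 0.108% to 0.234%). Intervals here and below cover counting error only. Among barcodes with no Ptprc UMI the shares were 0.747% and 0.971% in the Lrrc25-/- and WT B16F10 pools and 0.0752% and 0.534% in the Lrrc25-/- and WT MC38 pools. Sorting and mixing can set these shares, 1 pool was made per group, and their difference between pools was not tested. The 3 cells of the Lrrc25-/- MC38 pool are reported by UMI counts only, and comparisons use the other 3 libraries, which held 600039 endothelial UMIs (Lrrc25-/- B16F10), 554100 (WT B16F10) and 159350 (WT MC38). Median UMIs per endothelial cell were 9449, 7686, 5852 and 5466 in the Lrrc25-/- B16F10, WT B16F10, Lrrc25-/- MC38 and WT MC38 pools. Any 2 libraries shared 84 to 215 kept barcode sequences, and none of these was an endothelial cell in both.

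The rule genes are given as a description, since the rule fixes that they are found. Cdh5 UMIs were in 130 of the 141 cells, Emcn in 134, Plvap in 133 and Kdr in 92, and 82 cells had UMIs of all 4. Cdh5 (chromosome 8, 104101625 to 104144511, plus strand, GRCm38) measured 667 CPM in the Lrrc25-/- B16F10 pool, 594 CPM in the WT B16F10 pool and 1286 CPM in the WT MC38 pool. Emcn, a sialomucin of capillaries and veins (chromosome 3, 137341067 to 137432185, plus strand), measured 853, 624 and 810 CPM in the same 3 pools, and Plvap (chromosome 8, 71497765 to 71511752, minus strand) 1402, 1092 and 1017 CPM. Kdr (chromosome 5, 75932827 to 75978458, minus strand) measured 223, 162 and 395 CPM. In this 3′ assay a molecule gives 1 UMI whatever its length, so levels of genes are set side by side with no length term. Esm1 took no part in the rule but can vary together with its genes, so its levels are a description too. Esm1 is a secreted proteoglycan of tip cells (chromosome 13, 113209659 to 113218098, plus strand). Its level was 953 CPM in the Lrrc25-/- B16F10 pool, 883 CPM in the WT B16F10 pool and 784 CPM in the WT MC38 pool. Esm1 UMIs were present in 38 of 49, 51 of 61 and 23 of 28 cells of these pools, and in none of the 3 Lrrc25-/- MC38 cells. After thinning every cell to 3000 UMIs, Esm1 was found in 67.5%, 73.4% and 75.0% of endothelial cells of these pools, against 1.28%, 1.08% and 0.100% of T cells. The T cells were picked with no UMI of the rule genes, so the rule partly sets this contrast. Some members went against the label. In 6 of the 141 cells the melanocyte list, and in 10 the pericyte list, had more UMIs than the pan-endothelial list, 15 cells in all and each of them in B16F10. One Lrrc25-/- B16F10 cell had 295 melanocyte and 14 pan-endothelial UMIs, and 1 WT B16F10 cell 475 pericyte and 43 pan-endothelial UMIs. The name endothelial therefore stands for the rule, which such mixed barcodes also met.

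**Figure D1:**
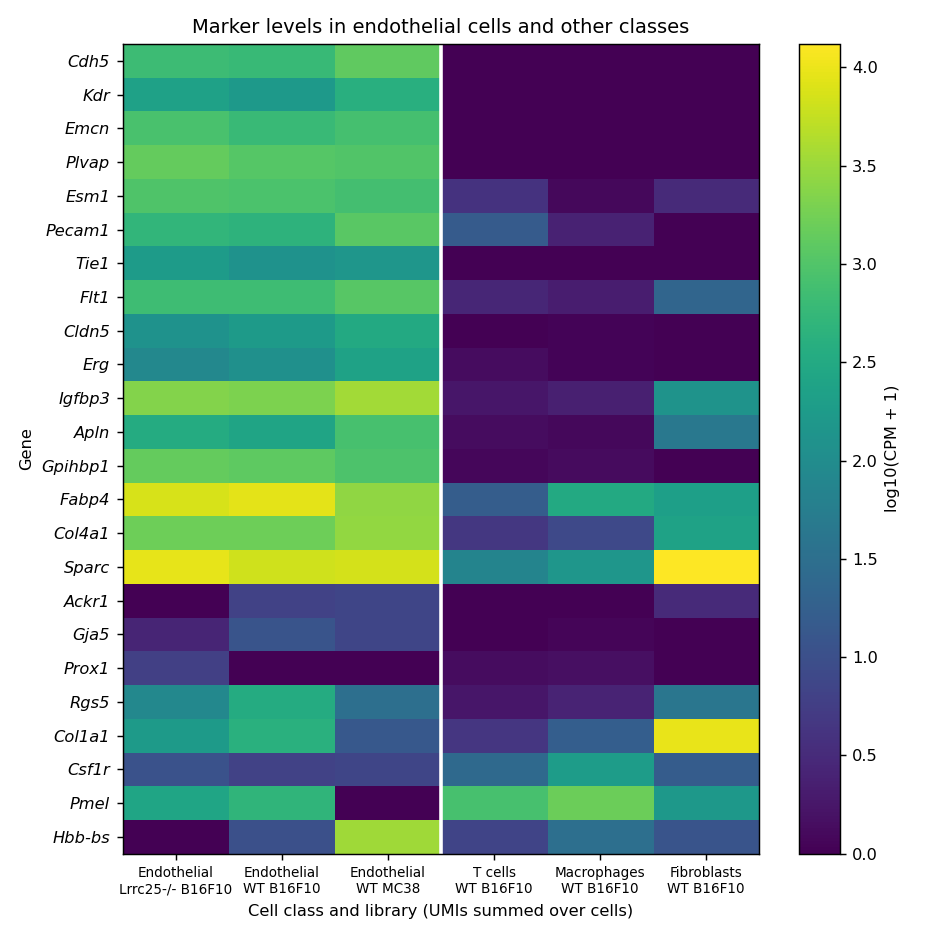
Summed level of marker genes, as log10(CPM + 1), in endothelial cells of 3 libraries (left of the white line) and in T cells, macrophages and fibroblasts of the WT B16F10 pool (right). Vessel and tip-cell genes such as Cdh5, Esm1, Igfbp3 and Gpihbp1 are bright in the endothelial columns, while Ackr1, Gja5 and Prox1 are dark there and Hbb-bs is bright in the WT MC38 endothelial column alone among those drawn.

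Other genes were also higher in the chosen cells than elsewhere. Among 1386 genes with at least 100 CPM and a UMI in at least 20% of the pooled endothelial cells, 210 were at least 4-fold above all other kept cells (15.2%) and 99 at least 16-fold. The 25 genes with the highest ratio included 3 rule genes and 22 others, 10 of them from a list of 25 pan-endothelial genes and 5 from a list of 15 tip-cell genes. Each of the 25 stood at or under 4.55 CPM in the other cells. Igfbp3, an insulin-like growth factor binding protein (chromosome 11, 7206086 to 7213923, minus strand), was the most abundant of them, at 2320 CPM against 3.18 CPM in the other cells, with a UMI in 90.8% of endothelial cells. Gpihbp1, which carries lipoprotein lipase to the capillary lumen (chromosome 15, 75596628 to 75599481, plus strand), measured 1269 CPM in endothelial cells against 1.46 CPM in the other cells, and Esm1 893 CPM against 0.916 CPM. Apln, the peptide ligand apelin, had 357 CPM in endothelial cells against 0.571 CPM in the others, Cldn5, a tight-junction claudin, 172 against 0.0962 CPM, and Flt1, the VEGFR1 receptor, 760 against 4.55 CPM. These ratios describe cells picked by correlated genes, so no test was applied to them.

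By role, 20 of 20 measured pan-endothelial genes were at least 4-fold above the other cells (median log2 ratio 6.91, rule genes included), as were 14 of 14 tip-cell genes (6.23), 12 of 12 basement membrane genes (5.30), 4 of 6 capillary genes and 6 of 7 junction genes, beside the 15.2% of all genes. The rule, and the need for abundance in the chosen cells, favour high ratios, so these counts are no evidence on what the cells are. Among basement membrane genes Sparc, a matrix glycoprotein, had 9229, 6616 and 7079 CPM in the Lrrc25-/- B16F10, WT B16F10 and WT MC38 pools, and the type IV collagen chain Col4a1 1630, 1635 and 2830 CPM. Of the hypoxia and glycolysis list, which all cells use, 1 of 13 measured genes was 4-fold above the others, with a median log2 ratio of 0.01.

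Capillary and tip-cell genes were prominent, and several arterial, venous and lymphatic genes were near zero, though their whole lists were not. The arterial list summed to 312, 356 and 289 CPM in the Lrrc25-/- B16F10, WT B16F10 and WT MC38 pools. The venous list summed to 587, 556 and 741 CPM in these pools, and the lymphatic list to 303, 84.8 and 132 CPM. Of the 182 lymphatic UMIs in the Lrrc25-/- B16F10 pool, 2 cells held 69 and 65. In the other cells of these libraries the lymphatic list stood at 143, 83.3 and 382 CPM. The capillary list summed to 10131, 11142 and 4054 CPM, with Fabp4 as its largest part. The lipid-binding protein Fabp4 reached 7540, 8791 and 2774 CPM in the Lrrc25-/- B16F10, WT B16F10 and WT MC38 pools. The arterial connexin Gja5 averaged 6.77 CPM over all endothelial cells, Sema3g 4.52 CPM, and Bmx was not detected. The venular chemokine receptor Ackr1 averaged 3.01 CPM, the venous transcription factor Nr2f2 20.3 CPM and P-selectin (Selp) 21.1 CPM, while the high endothelial venule genes Madcam1, Chst4 and Fut7 had no UMI. Prox1, the lymphatic master regulator, was found in 2 cells, both in the Lrrc25-/- B16F10 pool, where Ccl21a, Mmrn1 and Reln were also found in 2 cells each. The angiopoietin receptor gene Tek averaged 19.6 CPM and its relative Tie1 154 CPM. The proliferation genes Mki67 or Top2a had a UMI in 11 of 49, 10 of 61 and 5 of 28 cells of the Lrrc25-/- B16F10, WT B16F10 and WT MC38 pools.

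Cells with and without Esm1 differed in other genes. Over the 3 libraries 112 cells had an Esm1 UMI and 26 had none. The cells with Esm1 were deeper, with median UMIs of 10118, 8945 and 5634 in the Lrrc25-/- B16F10, WT B16F10 and WT MC38 pools, against 6389, 5080 and 4188 UMIs in cells without it, and the part of depth in the split was not tested. Summed levels, which scale with the total, were higher in cells with Esm1 for other tip-cell genes. Apln measured 407 CPM in cells with Esm1 and 86.1 CPM in cells without, Angpt2, the Tek antagonist, 627 and 152 CPM, and Cxcr4, the receptor of Cxcl12, 191 and 25.3 CPM. Igfbp3 measured 2618 CPM in cells with Esm1 and 704 CPM in cells without, and the Notch ligand Dll4 142 and 55.7 CPM. Apln, Angpt2, Cxcr4 and Igfbp3 were higher in cells with Esm1 within each of the 3 pools, while Dll4 in the WT B16F10 pool measured 126 CPM in cells with Esm1 and 130 CPM in cells without. Apln measured 406 CPM in cells with Esm1 and 9.48 CPM in cells without it in the Lrrc25-/- B16F10 pool, 264 and 130 CPM in the WT B16F10 pool, and 956 and 261 CPM in the WT MC38 pool. Other genes ran the opposite way. The apelin receptor Aplnr measured 31.4 CPM in cells with Esm1 and 197 CPM in cells without, the venule-linked glycoprotein gene Lrg1 28.7 and 172 CPM, Selp 9.86 and 70.9 CPM, E-selectin (Sele) 1.79 and 40.5 CPM, and the interferon-induced chemokine Cxcl9 344 and 1190 CPM. Most of these rested on few UMIs, with 35 and 39 for Aplnr, 32 and 34 for Lrg1, 11 and 14 for Selp and 2 and 8 for Sele. In the cells without Esm1, Cxcl9 UMIs lay in 8 of 26. By pool, Cxcl9 measured 510 CPM in cells with Esm1 and 1279 CPM in cells without it (Lrrc25-/- B16F10), 26.4 and 978 CPM (WT B16F10) and 924 and 1306 CPM (WT MC38). In the WT B16F10 pool the top cell, which had no Esm1 UMI, held most of the Cxcl9 UMIs. Aplnr had no UMI in either group of the WT MC38 pool. Cd36, a fatty acid receptor, summed to 152 CPM in both, but the pools differed, with 184 CPM in cells with Esm1 and 104 CPM in cells without it in the Lrrc25-/- B16F10 pool, 148 and 277 CPM in the WT B16F10 pool and 46.6 and 65.3 CPM in the WT MC38 pool. Apln and Aplnr thus differed in opposite directions across the split, which was made from these data and carries no test.

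**Figure D2:**
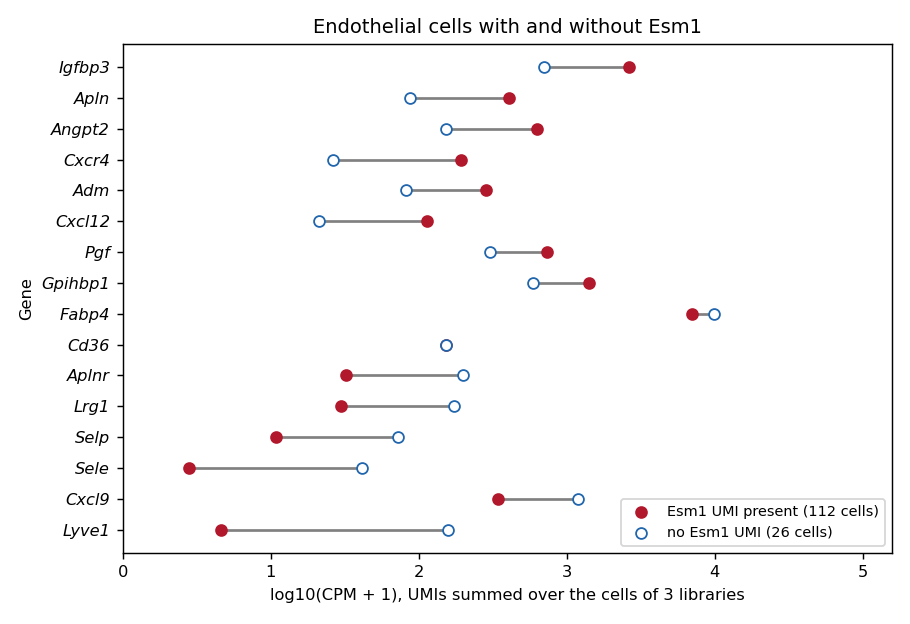
Summed level of 16 genes, as log10(CPM + 1), in the 112 endothelial cells with an Esm1 UMI (filled red) and the 26 without (open blue), over 3 libraries. The genes from Igfbp3 to Gpihbp1 lie further right in cells with Esm1, and Aplnr, Lrg1, Selp, Sele, Cxcl9 and Lyve1 further right in cells without it. Among the latter cells, Lyve1 UMIs lay in 2.

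UMIs of genes typical of other cells were present and differed between pools, and whether they came from such cells was not tested. The summed pericyte list (Rgs5, Acta2, Tagln and 7 others) measured 1550 CPM in the Lrrc25-/- B16F10 pool, 2819 CPM in the WT B16F10 pool and 251 CPM in the WT MC38 pool, with at least 3 UMIs in 17, 22 and 5 cells. The melanocyte list measured 777, 1532 and 12.6 CPM in these pools, beside 1250 and 2187 CPM in T cells of the Lrrc25-/- and WT B16F10 libraries. One cell held 63.3% of these UMIs in the Lrrc25-/- B16F10 pool and 1 cell 35.1% in the WT B16F10 pool, and the medians per cell were 313 and 420 CPM. Hemoglobin and Alas2 UMIs made up 1.67, 16.2 and 6188 CPM, and in the WT MC38 pool they lay in 14 of 28 cells, with the other 14 at 0 and 2.66 CPM in the rest of that library. Macrophage genes stood at 433, 585 and 427 CPM, against 10726, 7798 and 8251 CPM in the rest of the same libraries, lymphocyte genes at 45.0, 12.6 and 6.28 CPM, and Csf1r had 6, 3 and 1 UMIs. Several results that these signals could touch are given below with such cells left out.

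**Figure D3:**
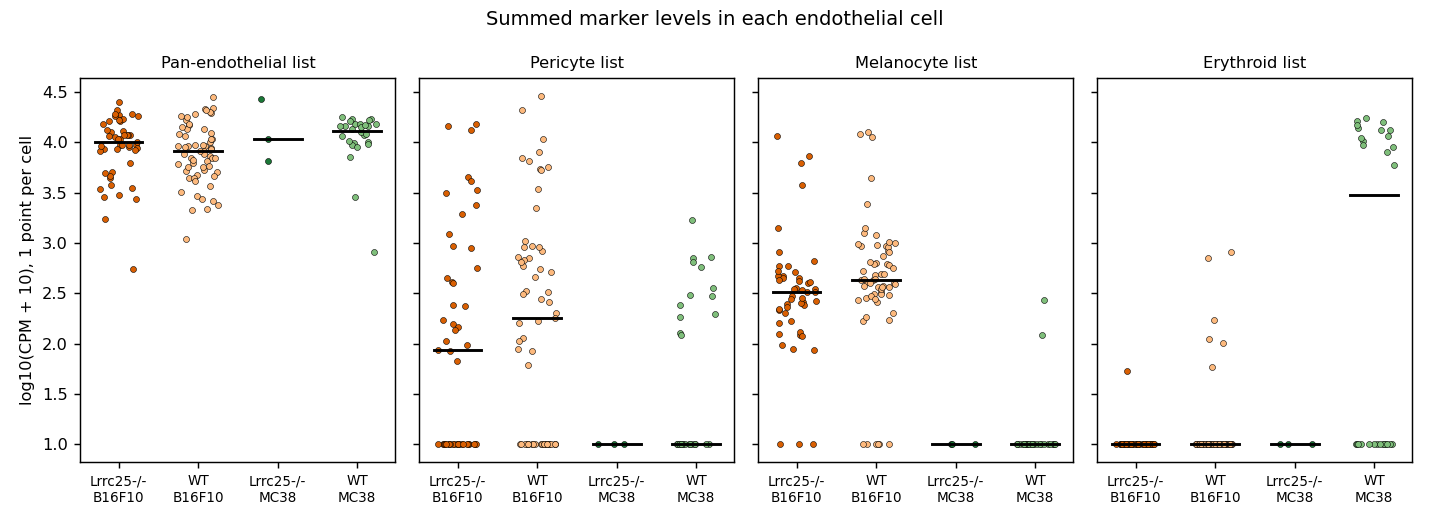
Summed level of 4 marker lists in each endothelial cell, as log10(CPM + 10), by library, with black bars at the medians. Pan-endothelial levels overlap in all 4 libraries, pericyte and melanocyte levels are spread over the B16F10 cells, and erythroid levels split the 28 WT MC38 cells into 14 with and 14 without.

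The question put to the tumor models was how endothelial cells of B16F10 tumors differed from those of MC38 tumors. Genes of hypoxia and glycolysis and of lipid-handling capillaries were higher in B16F10, and some junction genes and most measured interferon-gamma genes were lower. Basement membrane genes were lower at a share near that of all genes. The host mice, the day of collection and the tumor line differ together here and cannot be told apart. A gene was measured in a pair of pools with at least 100 CPM in either and 50 UMIs over both, and was past the size rule at a 2-fold difference after a pseudocount of 10 CPM. Between the WT pools, 355 of 1779 measured genes were higher in B16F10 (20%) and 407 lower (22.9%), and the median log2 ratio of all was 0.13. TMM scaling moved that median to 0.65 and the split to 764 higher and 233 lower, so list medians are given on both scales. The Lrrc25-/- B16F10 pool against the same WT MC38 pool gave 370 of 1795 higher (20.6%) and 417 lower (23.2%), and both B16F10 pools were past the rule on the same side for 264 of 1645 genes (16%) and 333 (20.2%). With the 2 B16F10 pools set against the WT MC38 pool in edgeR's quasi-likelihood test with Benjamini-Hochberg adjustment, 864 of 6829 genes were higher (12.7%) and 810 lower (11.9%). That fit has 1 residual degree of freedom, assumes that the lone MC38 pool varies like the others, and takes pools of different genotype as replicates. Of the genes past the size rule between the WT pools, 178 of 355 and 304 of 407 also differed at least 2-fold the same way in all other cells of those libraries.

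Hypoxia and glycolysis genes were higher in B16F10 endothelial cells for 12 of 14 measured members, against 20% of all genes. Their median log2 ratio was 2.05 (2.58 with TMM), against 1.04 in the other cells, and edgeR called 12 of these 14 higher. Slc2a1, the glucose transporter GLUT1, measured 227 CPM in the Lrrc25-/- B16F10 pool and 440.4 CPM in the WT B16F10 pool, against 37.7 CPM in the WT MC38 pool, with UMIs in 31 of 49, 41 of 61 and 5 of 28 cells. Both B16F10 pools lay above the MC38 pool. The ratio of the WT pools was 11.7 (exact interval 5.30 to 32.2), and edgeR's log2 difference was 3.42 with an adjusted p of 0.000285. In the other cells the log2 ratio of Slc2a1 was 0.21. Bnip3, a mitophagy receptor induced by hypoxia, measured 118 and 226 CPM in the Lrrc25-/- and WT B16F10 pools, against 12.6 CPM in the WT MC38 pool (edgeR log2 4.02, adjusted p 0.000710), and Ankrd37, a hypoxia-induced ankyrin protein gene, 242 and 354 CPM against 25.1 CPM (edgeR log2 3.83, adjusted p 5.82e-05). Lactate dehydrogenase A (Ldha) was a more abundant member, at 1412 and 1733 CPM in the Lrrc25-/- and WT B16F10 pools against 307.5 CPM in the WT MC38 pool, a WT ratio of 5.63 (4.23 to 7.67). Ldha and Gapdh were also higher in the other B16F10 cells, with log2 ratios of 1.65 and 2.32 there. Hk1 and Pfkp, early glycolytic enzymes, were the 2 measured members not past the rule. Per cell, the summed list ranged from 3889 to 23545 CPM with a median of 9074 in the Lrrc25-/- B16F10 pool, from 1508 to 41038 CPM with a median of 10708 in the WT B16F10 pool, and from 367 to 5697 CPM with a median of 2999 in the WT MC38 pool. The ranges overlapped while the B16F10 medians lay above the highest MC38 cell. With cells holding melanocyte or carcinoma UMIs left out, which kept 20 WT B16F10 and 27 WT MC38 cells, the list median was 1.72.

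Promoters of the list were also searched for ACGTG, the core of the hypoxia response element bound by HIF. Windows ran from 250 bases before to 50 after the RefSeq start on GRCm38.p6, and either strand counted. ACGTG was found for 15 of 17 list genes with a window (18 listed), against 21.8% of 27025 genes. A list picked for hypoxia genes favours a high share in advance, and HIF activity was not tested. The 2 list genes without a match were Pfkp and Eno1, of which Eno1 was past the size rule. Windows of the 3 members with the highest ratios between the WT pools and of Ldha, which has 5 matches in 1 of its 2 windows, are shown 5′ to 3′ on the gene's strand, with capitals marking ACGTG or its reverse complement CACGT, joined where they overlap as CACGTG. They lie at chr4:119108495-119108794 (Slc2a1, plus strand), chr7:138909457-138909756 (Bnip3, minus strand), chr8:45999801-46000100 (Ankrd37, minus strand) and chr7:46845554-46845853 (Ldha, plus strand). A match describes the letters and is not a binding measurement.
Slc2a1: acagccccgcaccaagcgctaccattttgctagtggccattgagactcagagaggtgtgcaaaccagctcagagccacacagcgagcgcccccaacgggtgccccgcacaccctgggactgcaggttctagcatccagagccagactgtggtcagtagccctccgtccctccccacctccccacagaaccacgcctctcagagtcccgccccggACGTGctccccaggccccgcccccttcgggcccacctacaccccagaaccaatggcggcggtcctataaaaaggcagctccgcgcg
Bnip3: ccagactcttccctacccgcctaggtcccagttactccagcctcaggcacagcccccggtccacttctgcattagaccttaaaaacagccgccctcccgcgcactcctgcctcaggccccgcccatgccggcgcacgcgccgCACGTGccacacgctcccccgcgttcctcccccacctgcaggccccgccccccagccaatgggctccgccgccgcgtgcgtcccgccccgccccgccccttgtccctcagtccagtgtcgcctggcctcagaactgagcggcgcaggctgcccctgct
Ankrd37: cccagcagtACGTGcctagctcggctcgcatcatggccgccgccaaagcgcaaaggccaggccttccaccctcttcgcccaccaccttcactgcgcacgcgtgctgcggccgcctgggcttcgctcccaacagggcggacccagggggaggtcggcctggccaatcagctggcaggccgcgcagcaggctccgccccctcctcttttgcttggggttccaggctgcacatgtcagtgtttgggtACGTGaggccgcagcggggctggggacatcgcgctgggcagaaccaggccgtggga
Ldha: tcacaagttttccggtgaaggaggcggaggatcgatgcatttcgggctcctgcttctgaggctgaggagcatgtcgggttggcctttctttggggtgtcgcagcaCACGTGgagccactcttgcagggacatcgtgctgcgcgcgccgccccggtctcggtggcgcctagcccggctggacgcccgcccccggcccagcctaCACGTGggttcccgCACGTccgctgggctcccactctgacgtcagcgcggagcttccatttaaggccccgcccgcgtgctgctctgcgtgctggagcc

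Beyond the list, the hypoxia-linked vasodilator peptide Adm (chromosome 7, 110627661 to 110629820) measured 237 and 337 CPM in the Lrrc25-/- and WT B16F10 pools against 18.8 CPM in the WT MC38 pool (edgeR log2 4.19, adjusted p 3.92e-05). Hilpda, a lipid droplet protein induced by hypoxia, measured 532 and 550.4 CPM in the B16F10 pools against 43.9 CPM (edgeR log2 3.89, adjusted p 3.14e-06). Depp1, an autophagy regulator downstream of FOXO (chromosome 6, 116650609 to 116652794, plus strand), was another abundant gene with a wide difference. It measured 1383 CPM in the Lrrc25-/- B16F10 pool and 1059 CPM in the WT B16F10 pool, against 43.9 CPM in the WT MC38 pool, a WT ratio of 24.1 (11.6 to 60.3). Its UMIs were in 44 of 49, 55 of 61 and 4 of 28 cells, and at 3000 UMIs a cell in 79.8%, 79.8% and 12.1%. In edgeR its log2 difference was 5.06 with an adjusted p of 1.25e-07, and in the other cells of the WT libraries the log2 ratio was 0.24.

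Capillary genes formed the other group that was higher in B16F10. Of 6 measured genes 5 were past the size rule, beside 20% of all genes. Their median log2 ratio was 1.58 (2.07 with TMM) against 0.01 in the other cells. Fabp4 (edgeR log2 1.84, adjusted p 1.68e-05) was also higher in the other B16F10 cells, with a log2 ratio of 2.69. Rgcc, a cell cycle regulator of capillary cells, measured 460 and 413 CPM in the Lrrc25-/- and WT B16F10 pools against 126 CPM in the WT MC38 pool, and the water channel Aqp1 325 and 319 CPM against 132 CPM. Both ran the opposite way in the other cells, where the log2 ratios were -1.63 and -1.83. The receptor gene Cd300lg measured 127 and 161 CPM in the Lrrc25-/- and WT B16F10 pools against 25.1 CPM (edgeR log2 2.78, adjusted p 0.00132), and Cd36 170 and 162 CPM against 50.2 CPM. Gpihbp1, at 1412 and 1233 CPM against 941 CPM, was not past the size rule but was called by edgeR at log2 0.77 with an adjusted p of 0.0219. Outside the list, the retinoid-binding protein gene Rbp7 had 265 and 314 CPM in the Lrrc25-/- and WT B16F10 pools and no UMI among the 159350 of the WT MC38 pool (exact upper bound 23.2 CPM).

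Chemokine and early-response genes were also partly higher. Of 7 measured chemokine genes 3 were higher and 1 lower between the WT pools, beside 20% and 22.9% of all genes. Their median log2 ratio was 0.96 (1.48 with TMM), and 0.20 without cells holding pericyte or fibroblast UMIs, against -0.59 in the other cells. Cxcl1 and Cxcl2, which draw neutrophils through Cxcr2, measured 672 and 1155 CPM and 330 and 359 CPM in the Lrrc25-/- and WT B16F10 pools, against 144 and 87.9 CPM in the WT MC38 pool. Of 13 early-response and stress genes, 6 were higher (Junb, Ier2, Atf3, Hspa1b, Dusp1 and Zfp36) and 1 lower (Klf4), beside the same 20% and 22.9%, with a median of 0.99 against -0.39 in the other cells. Without cells holding hemoglobin UMIs the early-response median was 0.35. Endothelin (Edn1) measured 88.3 and 173 CPM in the Lrrc25-/- and WT B16F10 pools against 12.6 CPM.

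The tip-cell list as a whole lay near the median of all genes, at -0.17 (0.35 with TMM). Adm and Kcne3 were higher and Apln lower in B16F10. Without cells holding hemoglobin UMIs, 3 tip-cell genes were at least 2-fold higher and 0 at least 2-fold lower, with a lowest log2 ratio of -0.93. Apln was thus no longer past the rule there. Apln measured 337 and 249 CPM in the Lrrc25-/- and WT B16F10 pools against 822 CPM in the WT MC38 pool, and edgeR gave a log2 difference of -1.21 with an adjusted p of 0.00281. Esm1, Angpt2 (458, 606 and 747 CPM) and Dll4 (132, 126 and 132 CPM in the Lrrc25-/- B16F10, WT B16F10 and WT MC38 pools) were not past the rule in either B16F10 pool.

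Pan-endothelial genes were lower in B16F10 for 7 of 20 measured members, with none higher, against 22.9% of all genes. Their median log2 ratio was -0.80 and, with TMM, -0.28, and edgeR called 5 lower and 1 higher. The list holds the 4 rule genes. Pecam1 (CD31) measured 520 and 457 CPM in the Lrrc25-/- and WT B16F10 pools against 1167 CPM in the WT MC38 pool (edgeR log2 -0.98, adjusted p 0.0056), and its log2 ratio in the other cells was -1.33. Ptprb, the phosphatase that restrains Tie2 and VE-cadherin signalling, measured 113 and 86.6 CPM in the Lrrc25-/- and WT B16F10 pools against 370.3 CPM, with 0.04 in the other cells (edgeR log2 -1.61, adjusted p 0.00134). Cyyr1 measured 78.3 and 63.2 CPM against 621 CPM (edgeR log2 -2.85, adjusted p 3.4e-06). Von Willebrand factor (Vwf) measured 56.7 and 46.9 CPM in the Lrrc25-/- and WT B16F10 pools against 213 CPM, and Notch1 56.7 and 48.7 CPM against 201 CPM.

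Junction genes were lower in B16F10 for 4 of 8 measured members, beside 22.9% of all genes, with a median log2 ratio of -0.98 (-0.44 with TMM). These included Pecam1, the scaffold gene Tjp1 and the rule gene Cdh5. Tjp1 (ZO-1) measured 58.3 and 74.0 CPM in the Lrrc25-/- and WT B16F10 pools against 358 CPM in the WT MC38 pool, and its log2 ratio in the other cells was -1.43. Basement membrane genes were lower for 4 of 12, near the 22.9% of all genes, with a median of -0.89 (-0.35 with TMM), these being Lama4, Lamb1, Nid1 and Hspg2. The laminin chain Lama4 measured 305 and 301 CPM in the Lrrc25-/- and WT B16F10 pools against 797 CPM (edgeR log2 -1.12, adjusted p 0.0035), while the other cells ran the opposite way at 1.05. Without the WT MC38 cells holding hemoglobin UMIs, which left 14, the junction median was -0.39 and the basement membrane median -0.46, with no basement membrane gene past the rule. The pan-endothelial median was then -0.42. These differences were therefore smaller where the erythroid RNA was absent, and its part in them was not tested further.

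Interferon-gamma genes were lower in B16F10 for 4 of 5 measured members, beside 22.9% of all genes. Their median log2 ratio was -2.51 (-2.01 with TMM), close to the -2.52 of the other cells. Irf1, a transcription factor of the response, measured 123 and 130 CPM in the Lrrc25-/- and WT B16F10 pools against 439 CPM in the WT MC38 pool, with log2 ratios of -1.68 in endothelial cells and -2.01 in the others. Iigp1, an interferon-induced GTPase gene, measured 76.7 and 25.3 CPM in the Lrrc25-/- and WT B16F10 pools against 427 CPM, and PD-L1 (Cd274) 25 and 7.22 CPM against 126 CPM. The chemokine Cxcl9 stood at 645 and 132 CPM in the Lrrc25-/- and WT B16F10 pools against 998 CPM, and the edgeR difference over both pools missed the threshold at log2 -1.09 with an adjusted p of 0.113.

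**Figure D4:**
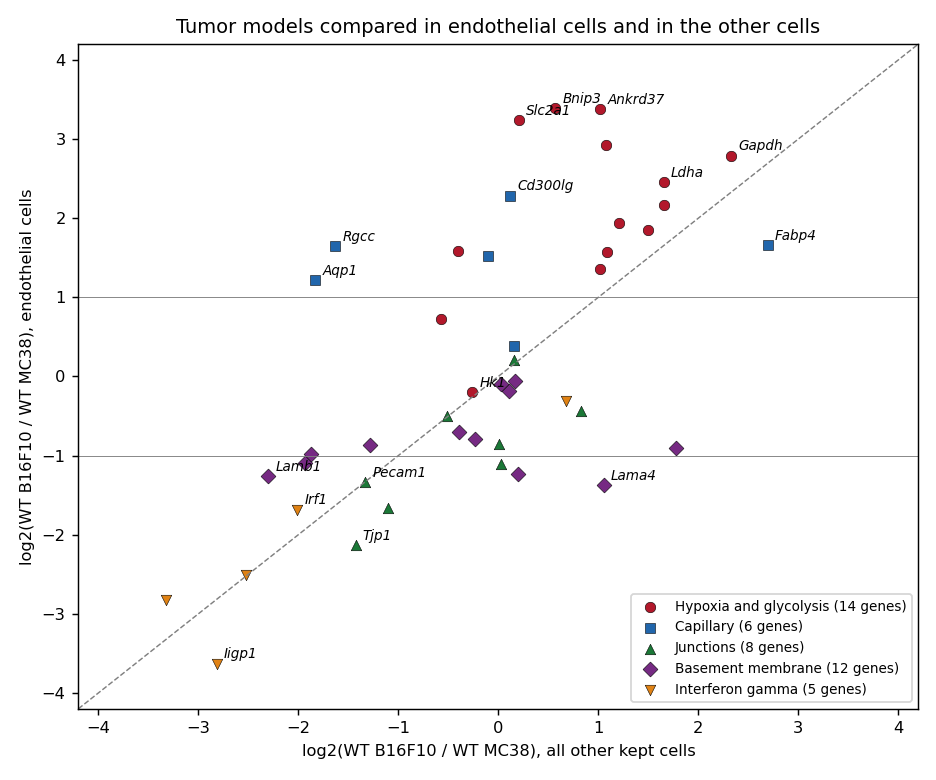
Each point is a gene of 1 of 5 lists, with log2(WT B16F10 / WT MC38) in all other kept cells on the x axis and in endothelial cells on the y axis. The dashed line marks equal ratios and the grey lines 2-fold. Slc2a1 lies at 0.21 and 3.24, the capillary genes Rgcc and Aqp1 lie left of zero but above 1, and the interferon-gamma genes Irf1 and Iigp1 lie low in both.

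The largest differences were otherwise of other kinds. The highest 12 named by the smaller ratio of both B16F10 pools included the smooth-muscle genes Acta2 (807, 1278 and 0 CPM in the Lrrc25-/- B16F10, WT B16F10 and WT MC38 pools), Tagln and Myl9, and the melanocyte gene Pmel (262, 502 and 0 CPM), which is not an endothelial product. Among the lowest 12 were the hemoglobin genes Hbb-bs (0, 9.02 and 3351 CPM) and Hba-a1 (0, 7.22 and 1399 CPM) and the X-inactivation RNA Xist (0, 0 and 565 CPM, in 24 of 28 WT MC38 cells). T cells of the WT MC38 library had 754 CPM of Xist, so hosts in the MC38 and B16F10 groups also differed in Xist, and the labels give no sex. A further 3 genes of the lowest 12 had larger ratios in endothelial cells than in the others. Ccser1 measured 40.0 and 16.2 CPM in the Lrrc25-/- and WT B16F10 pools against 634 CPM in the WT MC38 pool, with a ratio of -0.17 (log2) in the other cells (edgeR log2 -4.19, adjusted p 5.94e-07). The phosphodiesterase gene Pde4d measured 123 and 79.4 CPM against 1186 CPM, and the transcription factor gene Dach1 23.3 and 16.2 CPM against 364 CPM, with -1.11 and -0.94 in the other cells.

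The question put to the genotypes was whether endothelial cells differed between Lrrc25-/- and WT hosts, and it could be put in B16F10 only. Few genes were past the size rule. Of 1475 measured genes 13 were higher in the Lrrc25-/- pool (0.881%) and 37 lower (2.51%), with a median log2 ratio of 0.04. Without the top cell of each gene in each pool, 6 of the 13 and 20 of the 37 were still past the rule. In edgeR, with the Lrrc25-/- B16F10 pool against the 2 WT pools, 0 of 6829 genes were higher (0.00%) and 0 lower (0.00%), with 54 genes at an unadjusted p under 0.05. DESeq2 also called 0, with 15 unadjusted. That fit also takes the 2 WT pools of different tumors as replicates, so the model difference counts as spread in it. In simulated counts, the tumor model fit, also 2 pools against 1, missed the differences set at 2-fold. The lack of calls for genotype therefore cannot show that endothelial genes were alike in Lrrc25-/- and WT hosts.

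No gene was past the rule among 19 measured pan-endothelial genes (median log2 0.30), 14 tip-cell genes (-0.04), 6 capillary genes (0.04), 12 basement membrane genes (0.09) or 6 junction genes (0.20). Without cells holding tumor-cell RNA, which left 21 Lrrc25-/- and 20 WT cells, these medians were -0.24 (pan-endothelial), 0.16 (tip-cell), -0.44 (capillary), -0.31 (basement membrane) and -0.12 (junction), and the capillary genes Cd36 and Cd300lg were at -1.70 and -1.08. Without cells holding pericyte or fibroblast UMIs, Kcne3 of the tip-cell list was at -1.25. In the hypoxia and glycolysis list 1 of 14 was lower, the stress gene Ndrg1 (148 CPM in the Lrrc25-/- pool, 377 CPM in the WT pool), and the list median was -0.53, against -0.28 in the other cells. Without cells holding tumor-cell RNA, Ndrg1 was at -0.19, not past the rule, and the list median was -0.18. Ero1l, a hypoxia-induced oxidase of the endoplasmic reticulum, was lower past the rule, at 122 CPM in the Lrrc25-/- pool and 457 CPM in the WT pool. Its UMIs were in 25 of 49 and 38 of 61 cells, and its log2 ratio was -1.83, with -0.04 in the other cells. Without cells holding tumor-cell RNA, Ero1l was at -1.32, still 2-fold but short of the level or UMIs that the rule asks. Atf3 and Klf2 were lower among 12 early-response genes, but at -0.67 and -0.88, not past the rule, without cells holding pericyte or fibroblast UMIs.

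Of the 13 higher genes, 4 were chemokine or leukocyte adhesion genes. Of 3 measured interferon-gamma genes 2 were higher, Cxcl9 and Cxcl10, and of 4 adhesion genes 2, Icam1 and Vcam1, beside 0.881% of all genes. Cxcl9, which draws Cxcr3+ T cells, measured 645 CPM in the Lrrc25-/- pool and 132 CPM in the WT pool, a ratio of 4.90 (3.80 to 6.38). Its UMIs were in 17 of 49 Lrrc25-/- cells and 9 of 61 WT cells, and the top cell held 55.8% of them in the Lrrc25-/- pool and 74.0% in the WT pool. Without those cells the log2 ratio was 2.74, in place of 2.21, and the other cells of the libraries had 0.64. Cxcl10 measured 560.0 CPM in the Lrrc25-/- pool and 211 CPM in the WT pool, but its log2 ratio of 1.37 was 0.12 without the top cells. Icam1, the ligand of the integrin LFA-1, measured 210.0 CPM in the Lrrc25-/- pool and 77.6 CPM in the WT pool, in 23 and 17 cells, with a log2 ratio of 1.33 that was 1.36 without the top cells and 0.71 without cells holding pericyte or fibroblast UMIs. Vcam1, the ligand of the integrin VLA-4, measured 110.0 CPM in the Lrrc25-/- pool and 28.9 CPM in the WT pool. Its log2 ratio was 1.63, 1.06 without the top cells and 1.12 with the mean of per-cell CPM. In the last 2 it was short of the level or UMIs that the rule asks. Related genes under 100 CPM in both pools lay outside the rule. Gbp2 had 57 UMIs in the Lrrc25-/- pool and 7 UMIs in the WT pool, and Gbp7 24 and 4 UMIs. The whole interferon-gamma list had 1155 UMIs in the Lrrc25-/- pool, of which the top cell held 546 and another cell 177. Its medians per cell were 736 CPM in the Lrrc25-/- pool and 409 CPM in the WT pool. Irf1 (123 and 130 CPM in the Lrrc25-/- and WT pools) was not higher past the rule. The 7 measured class I antigen presentation genes had a median of 0.56, none past the rule, beside 0.60 in the other cells.

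For the interferon-gamma list, promoter windows were searched on either strand for the core of the interferon-stimulated response element, taken as GAAA, any 2 bases and GAAA again. It was found for 8 of 12 list genes with a window (17 listed), against 3.99% of 27025 genes, and not for Irf1, Cxcl9, Ifngr1 or Ifngr2. A list picked for interferon genes favours a high share in advance, and the regulation of these genes was not tested. The windows of Cxcl10 and Gbp2 are shown because both are named above, with capitals marking the match, which in Gbp2 lies on the opposite strand. They lie at chr5:92348840-92349139 (Cxcl10, minus strand) and chr3:142620413-142620712 (Gbp2, plus strand), from RefSeq on GRCm38.p6.
Cxcl10: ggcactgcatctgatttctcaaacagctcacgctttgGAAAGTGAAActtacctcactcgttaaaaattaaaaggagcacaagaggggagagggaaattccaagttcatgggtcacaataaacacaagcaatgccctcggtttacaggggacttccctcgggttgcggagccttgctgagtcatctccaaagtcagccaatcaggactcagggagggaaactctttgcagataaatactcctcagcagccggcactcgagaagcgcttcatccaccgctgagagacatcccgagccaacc
Gbp2: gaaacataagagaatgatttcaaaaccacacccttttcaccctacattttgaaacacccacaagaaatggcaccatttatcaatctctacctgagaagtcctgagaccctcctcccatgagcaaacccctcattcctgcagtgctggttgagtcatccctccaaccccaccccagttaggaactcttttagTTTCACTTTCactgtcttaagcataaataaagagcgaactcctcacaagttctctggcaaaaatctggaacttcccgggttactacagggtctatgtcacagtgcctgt

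Id1 and Prnd were also higher. Id1, an inhibitor of differentiation induced by BMP signalling (chromosome 2, 152736251 to 152737410, plus strand), measured 360.0 CPM in the Lrrc25-/- pool and 88.4 CPM in the WT pool, a ratio of 4.07 (2.97 to 5.67). It was found in 27 of 49 and 25 of 61 cells, or in 42.8% and 22.0% at 3000 UMIs a cell. Its log2 ratio was 1.91, and 1.86 without the top cells, against -0.19 in the other cells. Without cells holding tumor-cell RNA the Id1 ratio was 0.64, not past the rule. The WT MC38 pool had 307.5 CPM of Id1, but that pool differs in tumor line, host and day and sets no reference level. The related Id3 measured 435 CPM in the Lrrc25-/- B16F10 pool and 361 CPM in the WT B16F10 pool, not past the rule. Prnd, the prion-like protein doppel of tumor endothelium, measured 132 CPM in the Lrrc25-/- pool and 25.3 CPM in the WT pool, a ratio of 5.21 (2.93 to 9.96), and was found in 24.4% and 6.75% of thinned cells. Its log2 ratio was 2.01, and 2.15 without the top cells, against 0.01 in the other cells. The other higher genes named were Gal (450 CPM in the Lrrc25-/- pool, 45.1 CPM in the WT pool), Ubd (240 and 28.9 CPM), Tfpi2 (158 and 43.3 CPM) and Nupr1 (188 and 65.0 CPM). In Gal and Ubd 1 cell held 79.6% and 81.3% of the Lrrc25-/- UMIs. Tfpi2, with a log2 ratio of 1.66, was not past the rule with doublets removed (0.76), without cells holding tumor-cell RNA (0.77) or without the top cells (0.98).

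On the lower side, Ccn2, a matricellular target of YAP (CTGF), had 30 UMIs in the Lrrc25-/- pool and 164 UMIs in the WT pool, in 13 of 49 and 33 of 61 cells. Its log2 ratio was -2.35, against 0.08 in the other cells. Plcb1 measured 113 CPM in the Lrrc25-/- pool and 881 CPM in the WT pool, and the difference ran through the whole libraries, with 14.2 and 310 CPM in the other cells. The mural genes Mgp (95 and 661 CPM), Rgs5 (83.3 and 343 CPM) and Higd1b (15.0 and 103 CPM in the Lrrc25-/- and WT pools) were also lower. Without cells holding pericyte or fibroblast UMIs their log2 ratios were -0.32, -0.40 and 0, none past the rule. The whole pericyte list had a median of -1.15, and -0.32 without such cells, which are picked partly by UMIs of that list. Mmp10 had no UMI in the Lrrc25-/- pool, against 70 in the WT pool, all in 1 cell, and Galntl6 none, against 68 in 14 cells.

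**Figure D5:**
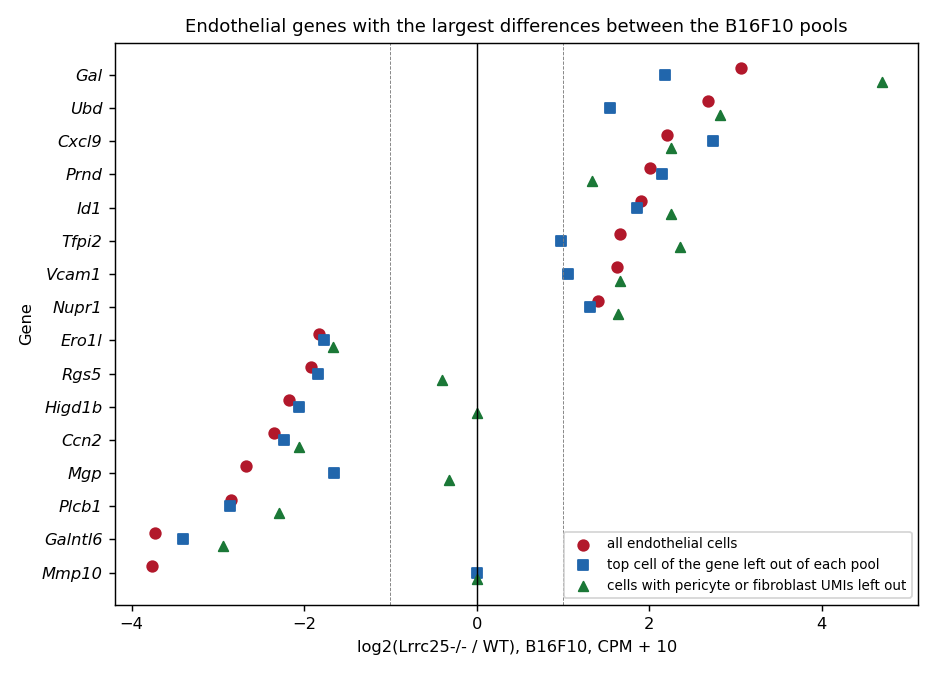
log2(Lrrc25-/- / WT) after a pseudocount of 10 CPM for the 8 highest and 8 lowest genes between the B16F10 pools, with all endothelial cells (red circles), without the gene's top cell in each pool (blue squares) and without cells holding pericyte or fibroblast UMIs (green triangles). Dashed lines mark 2-fold. Gal, Ubd, Cxcl9, Prnd, Id1, Vcam1 and Nupr1 stay beyond 1 under all 3. Of these, Gal, Ubd and Vcam1 fell short of the level or UMIs of the size rule without the top cells. Mmp10 and Galntl6 had no Lrrc25-/- UMI, so their red positions depend on the pseudocount.

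The 3 endothelial cells of the Lrrc25-/- MC38 pool held 15251 UMIs in all. Of these 26 were Cdh5, 20 Plvap, 13 Emcn and 5 Kdr. Igfbp3 had 22 UMIs, 21 of them in 1 cell, and Esm1 had none. Cxcl9 had 27 UMIs, with some in each of the 3 cells, and Cxcl10 had 32. No comparison of genes with the 28 WT MC38 cells was made.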

How the data were processed

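The deposited values were whole-number UMI counts per gene and cell barcode, not normalized, from the SeekOne Digital Droplet 3′ kit per the labels' protocols, on build mm10 as the submitters' processing notes state. Neither the aligner nor the cell caller is named in the sources used. UMIs were summed over the endothelial cells of each library (Python 3.11.15) and scaled to CPM of that sum. Intervals were exact (Poisson, Clopper-Pearson, conditional for ratios) at 95%. edgeR 4.0.16 (R 4.3.3) ran on summed counts of 3 libraries with TMM, filterByExpr and no covariate, and DESeq2 1.42.0 was an alternative. A 4-library fit with a second term had been planned, but the Lrrc25-/- MC38 pool held under 20 cells. For the same reason the genes named between models were the 12 highest and 12 lowest by the smaller ratio of both B16F10 pools to the WT MC38 pool, and between genotypes the 8 highest and 8 lowest, besides list members. T cells, macrophages and fibroblasts for comparison were defined by markers and by having no UMI of the rule genes. Scrublet (scanpy 1.11.5) ranked doublets, and the main values keep them, with 1, 5, 0 and 0 endothelial cells of the Lrrc25-/- B16F10, WT B16F10, Lrrc25-/- MC38 and WT MC38 pools among the top scores. Positions were from GENCODE M21, with 32158 of 32285 identifiers placed. Members and gene lists were chosen with earlier results of these data known. The scripts were tested on simulated counts. There, edgeR with 2 pools against 1 for tumor model caught 40% of the differences set at 4-fold. It caught 0% of those set at 2-fold, and made 0 false calls. The size rule between the B16F10 pools caught 100% of the differences set at 3-fold.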

Additional observations from a re-analysis of the deposited data

How the results depend on the processing

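With no C1q UMI allowed, the endothelial share was 0.106% for Lrrc25-/- B16F10, 0.173% for WT B16F10 and 0.0810% for WT MC38. Between the genotypes in B16F10, the 13 higher genes became 32 with the mean of per-cell CPM (10 of them among the 13), 25 without cells holding tumor-cell RNA (7), 37 without cells holding pericyte or fibroblast RNA (10), 25 with no CPM filter (13) and 7 without top cells (6), and the 37 lower became 19 without cells holding tumor-cell RNA (3 of them among the 37). Between the models, the 355 higher genes became 764 with TMM (355 of them among the 355) and 110 without cells holding tumor-cell RNA (78), and the 407 lower became 233 with TMM (233 of them among the 407), 154 without cells holding tumor-cell RNA (144), 255 without cells holding pericyte or fibroblast RNA (229) and 230 without cells holding erythroid RNA (211). Leaving cells out lowers UMIs and so the genes measured; the cause of the other shifts was not tested. DESeq2 called 350 higher and 87 lower between models, of 2383 genes with an adjusted p, in place of edgeR's 864 and 810. For genotype, edgeR with DESeq2 size factors called 1 gene higher and 1 lower in place of 0 and 0. Without cells holding tumor-cell RNA, which left 21 Lrrc25-/- and 20 WT B16F10 cells, the log2 ratios of Higd1b and Rgs5 between genotypes turned to 0.72 and 2.62. Without cells holding erythroid RNA, which are left out by UMIs of Hba-a1 and Hbb-bs themselves, these genes stood at 0.45 and 0.79 between models. Of 144 values for 16 genes named between genotypes, 116 kept direction and side of the rule and 26 no longer met it, 14 of these still 2-fold but short of the level or UMIs it asks; between models these were 218, 20 and 14 of 240 for 24 genes. No paired analysis was possible because each group is 1 pool. Comparisons with the Lrrc25-/- MC38 pool were not run at 3 cells, nor edgeR without 1 library, which leaves no residual degree of freedom.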
